A study of Neotoma lepida with 16 samples.

Results

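The 39 genes described here encode the proteins of the complement system and of blood clotting, with their inhibitors and the proteins that dissolve clots. They were measured in the livers of wild-caught desert woodrats (Neotoma lepida) on Agilent rat arrays, and were taken as every probe whose gene name in the scanner files is on the list. Of the 39 genes, 37 had a probe and 32 were measured well enough to be tested, out of 26512 genes tested in all. C8b (a chain of the membrane attack complex) and F5 (the cofactor that speeds thrombin formation) had no probe under those names. Cfd, C4bpa, C6, Klkb1 and Serpind1 had probes, but on no more than 3 of the arrays was any of those probes well above background, so nothing is said of their levels. Of the 32 tested genes, 27 were well above background on all 16 arrays, and each of the 32 was so on at least 1 array of every group.

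Animals of 2 populations, Great Basin and Mojave, were held for 3 months on rabbit chow and were then fed creosote bush or juniper, mixed into the chow in increasing amounts over 5 days. Each of the 4 groups held 4 animals: Great Basin on creosote, Great Basin on juniper, Mojave on creosote and Mojave on juniper. All 4 Mojave creosote animals were male, and every other group held 2 males and 2 females. The question was how the liver responds to 2 plants that differ in their toxins, and whether this depends on the population. The arrays hold no chow-only group, and higher on creosote therefore means the same as lower on juniper. Ages are not among the labels.

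Most complement and clotting proteins of the blood plasma are made by hepatocytes and secreted. Complement is started by antibody through C1 (the classical pathway), by sugars on microbes through mannose-binding lectin (the lectin pathway), or by spontaneous activation that is amplified on surfaces (the alternative pathway). All of these routes meet at C3 and C5 and end in a pore of terminal components. Clotting is a chain of protease precursors that ends with thrombin, which turns fibrinogen into fibrin. Protein C, protein S and antithrombin restrain the chain, and plasmin dissolves the clot.

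Each array compared the liver RNA of 1 animal, in the red dye, with a pool of the RNA of all 16 animals, in the green dye. A value is therefore a log2 ratio to that pool, where 0 means the level of the pool. The differences and standard errors (SE) given below come from a limma model with the 4 groups and sex as terms, so they are adjusted for sex and can depart from the plain difference of group means. The adjusted p is Benjamini-Hochberg over all 26512 genes, and a gene passed at an adjusted p below 0.05. The share of probes well above background ranged from 45.56% to 75.85% over the arrays. One slide, which held 1 animal of each group, was dimmer than the others (a mean of 48.48%, against 65.51%, 69.92% and 71.28%). Every slide had the same layout, with Great Basin creosote at position 1, Mojave creosote at 2, Mojave juniper at 3 and Great Basin juniper at 4. Neither diet nor population within a diet can be told apart from array position. Hepatocyte markers were present: 15 of 18 were measured, Alb and Ttr among them, and Apoa1, Arg1 and Tf were not.

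Livers on creosote held more transcript of several complement and clotting genes than livers on juniper, and no gene of the list passed the test in the other direction (with median centring in place of loess, Masp1 did in Mojave animals). In Great Basin animals 3 of the 32 genes were higher on creosote (Mbl1, C5 and Serpinf2), against 3.99% of all genes past the threshold in either direction and 2.06% higher. An unadjusted p below 0.05 was reached by 13 of the 32, beside 17% of all genes. In Mojave animals 5 of the 32 were higher (Mbl1, C5, Cfi, Fgb and Proc, where Fgb passed by a probe saturated on 13 of the 16 arrays and not by its unsaturated one), against 9.53% of all genes in either direction and 3.82% higher, and 12 had an unadjusted p below 0.05 (22.1% of all genes). With the diet effect averaged over both populations, 9 of the 32 were higher and none lower, where 12.1% of all genes passed and 5.7% were higher. Here 16 had an unadjusted p below 0.05 (24.5% of all genes). The added genes were C2, Masp2 and F2.

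Passed or not, the estimate lay above 0 for 30 of the 32 genes in Great Basin animals and for 27 of 32 in Mojave animals, where 48.3% and 49% of all genes did. The median difference was 0.36 in Great Basin animals, and in Mojave animals it was 0.30 with loess and -0.013 with median centring, beside -0.0057 and -0.0038 over all genes tested with loess. Averaged over populations it was 0.34 (28 of 32 above 0, against 47.7% of all genes), and the interquartile range of all genes was -0.082 to 0.070. The averaged median was 0.35 over 15 complement genes and 0.34 over 17 genes of clotting and fibrinolysis. These medians are descriptions of the list, without a test.

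The Mojave values depended on how the arrays were normalised and on the sex term. Without the sex term Masp2, F2 and Vtn passed in Mojave animals as well, by 0.37, 0.79 and 0.73, and Mbl1 and Fgb no longer did. Those calls stand without the share of all genes called under that setting. When each array's ratios were only centred on their median, 2 of the 32 genes were higher on creosote in Mojave animals and 1 was lower, 16 lay above 0, and 2.44% of all genes were higher and 15.5% lower. The Great Basin calls stayed at 3, with 30 of 32 above 0 and a median of 0.50. The average over populations gave 8 genes higher and 0 lower, with a median of 0.21. The Great Basin and averaged counts stand here without the share of all genes called under median centring. They do not show whether the list changed more than other genes did. The deposited ratios, the red channel alone and a smaller background offset gave Mojave medians within the 0.26 to 0.38 that covers the other settings tried. In whole-liver RNA, a change in the share of hepatocytes and a change of RNA per cell cannot be told apart.

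**Figure D1:**
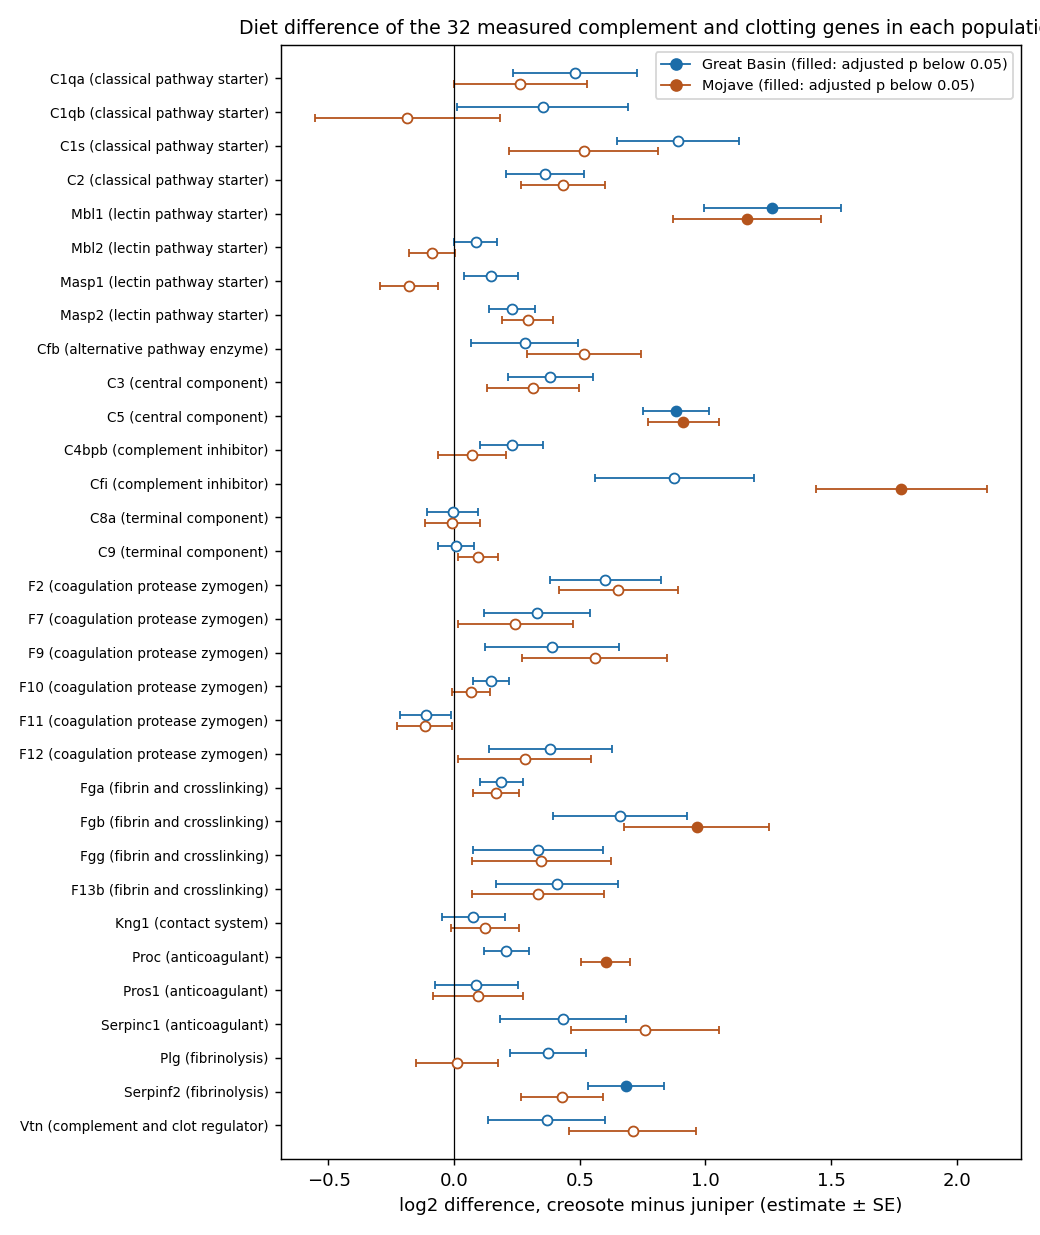
Difference between creosote and juniper (x axis, log2, estimate ± SE from the limma model, n = 4 animals per group, except C1s with 2, 2, 4 and 1 animals in Great Basin creosote, Great Basin juniper, Mojave creosote and Mojave juniper, and Serpinc1 with 3 in Mojave juniper) for each of the 32 measured genes, ordered by role on the y axis, in Great Basin (blue) and Mojave (orange) animals. Filled points passed at an adjusted p below 0.05, all of them to the right of 0 with this loess normalisation (with median centring Masp1 passed to the left in Mojave animals), and the widest separation from 0 is that of Cfi in Mojave animals, at 1.78.

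Among the proteins that start complement, Mbl1 stood out. It encodes mannose-binding lectin A, a sugar-binding plasma protein that opens the lectin pathway. In Great Basin animals the log2 ratios to the pool were 0.15, 0.06, 0.76 and 1.66 on creosote and -0.60, 0.13, -0.71 and -1.26 on juniper. In Mojave animals they were -0.03, 0.85, 0.04 and 0.01 on creosote and -0.63, -0.57, -0.85 and -0.59 on juniper. The Mojave diet groups did not overlap, while in Great Basin 1 juniper animal reached into the creosote range. The difference was 1.27 ± 0.27 in Great Basin (2.41-fold, adjusted p = 0.016) and 1.17 ± 0.30 in Mojave (2.24-fold, adjusted p = 0.021). Within slides it ran from -0.064 to 2.26 in Great Basin, with 3 of 4 slides above 0, and from 0.59 to 1.42 in Mojave. The Great Basin call was lost without juniper animal 1 or 4 (adjusted p = 0.0615 and 0.0625), in males alone (1.09, adjusted p = 0.138) and without the dimmest slide (1.40, adjusted p = 0.0689). The Mojave call was lost without creosote animal 2 (adjusted p = 0.058), with median centring (0.76, adjusted p = 0.0553), in the red channel alone (1.30, adjusted p = 0.0533), without the dimmest slide (1.12, adjusted p = 0.0825), without the sex term (0.88, adjusted p = 0.0888) and in males alone (0.82, adjusted p = 0.0989). The sex term of Mbl1, male minus female, was -0.58 ± 0.22 (unadjusted p = 0.0203, adjusted p = 0.996). The call averaged over populations (1.22 ± 0.20, adjusted p = 0.00093) held in all of the 29 alternatives run.

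The partners of Mbl1 in the lectin pathway gave smaller differences. Masp2, the protease that mannose-binding lectin carries to cleave C4 and C2, read 0.81, 0.41, 0.58 and 0.49 on creosote and 0.20, 0.27, 0.44 and 0.47 on juniper in Great Basin animals. The Mojave values were 0.74, 0.50, 0.45 and 0.51 on creosote and 0.19, 0.34, -0.03 and 0.24 on juniper. The diet groups overlapped in Great Basin and stood apart in Mojave. Without the sex term the Mojave difference of Masp2 passed (0.37, adjusted p = 0.0243). The difference passed when averaged over populations (0.26 ± 0.07, 1.20-fold, adjusted p = 0.0206), but not without Great Basin creosote animal 3 (adjusted p = 0.0517) or Mojave juniper animal 1 (adjusted p = 0.0583), nor with median centring (0.12, adjusted p = 0.429), the deposited ratios (0.30, adjusted p = 0.0644), the red channel alone (0.27, adjusted p = 0.135), males alone (0.22, adjusted p = 0.245) or without the dimmest slide (0.25, adjusted p = 0.0582). Of its other probes, 2 were measured and gave -0.06 and -0.03 averaged over populations, so the call rests on the brightest probe. With the mean of the measured probes the call was lost (0.055, adjusted p = 0.449). Mbl2, the other mannose-binding lectin, was dim and gave 0.09 ± 0.09 in Great Basin and -0.09 ± 0.09 in Mojave. Masp1, a second lectin-pathway protease, gave 0.15 ± 0.11 and -0.18 ± 0.12, neither past the threshold, and its 3 other measured probes averaged between -0.12 and 0.07.

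Of the genes that start the classical pathway, C2 alone passed, in the average over populations. C2 encodes the protease of the classical and lectin C3 convertase. It read 0.52, 0.19, 0.20 and 0.42 on creosote and -0.10, 0.10, -0.13 and 0.02 on juniper in Great Basin animals, and the groups did not overlap. The Mojave animals had -0.40, 0.30, 0.58 and 0.16 on creosote and -0.32, -0.35, -0.17 and -0.13 on juniper, where creosote animal 1 had the lowest value of all. Without that animal the Mojave difference of C2 passed (0.62, adjusted p = 0.00559). The difference averaged over populations was 0.40 ± 0.11 (1.32-fold, adjusted p = 0.033). It was lost on leaving out any 1 of 8 of the animals, with adjusted p between 0.0515 and 0.0798 (Great Basin creosote 1 and 4, Great Basin juniper 1, 3 and 4, Mojave creosote 2, Mojave juniper 1 and 2), and also with median centring (0.27, adjusted p = 0.191), the deposited ratios (0.43, adjusted p = 0.0553), males alone (0.45, adjusted p = 0.187) and without the dimmest slide (0.29, adjusted p = 0.16).

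C1s encodes the serine protease of the C1 complex. Its brightest probe had values on only 9 of the 16 arrays, since spots marked as outliers were left out. The estimate was 0.89 ± 0.24 in Great Basin and 0.52 ± 0.30 in Mojave, neither past the threshold. The Mojave estimate sets 4 male creosote animals against 1 female juniper animal. The sex term of C1s rests on Great Basin creosote animals 1 (male) and 4 (female) alone. Averaged over populations it was 0.70 ± 0.19 and did not pass. Whether it passed changed with single animals left out, without the sex term, and among genes well above background on at least 12 arrays. Great Basin creosote animal 2 had no value at this probe, so leaving it out kept the estimate at 0.70. Without Great Basin creosote animal 1 or 4 the sex term could not be fitted for C1s. Those estimates, 0.70 and 0.78, were not adjusted for sex. The second probe of C1s had a value on every array. In Great Basin animals this probe read 1.23, 0.26, -0.24 and 0.38 on creosote and -0.69, 0.06, -0.75 and -0.96 on juniper. For the Mojave animals the values were -0.51, 0.15, 0.18 and -0.01 on creosote and -0.57, -1.43, -1.19 and -1.19 on juniper. The diet groups overlapped in Great Basin, through creosote animal 3, and not in Mojave. The second probe gave 0.99 in both populations and 0.99 ± 0.21 on average (adjusted p = 0.00569 over the 30151 measured probes). With the mean of both probes C1s passed in Mojave animals (1.04, adjusted p = 0.0203) and on average (0.91, adjusted p = 0.00326). In that mean, animals without a value at the brightest probe had the second probe alone.

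C1qa and C1qb encode 2 of the chains of C1q, the antibody-recognition part of C1, which is made largely by macrophages. C1qa gave 0.48 ± 0.25 in Great Basin and 0.26 ± 0.27 in Mojave, and C1qb gave 0.35 ± 0.34 and -0.19 ± 0.37, with no call. Of the 12 macrophage and Kupffer cell markers measured, 1 passed: Cd14 was lower on creosote in Great Basin animals, by -0.54 ± 0.10 (adjusted p = 0.00668). In that comparison 3.99% of all genes passed.

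The routes of complement meet at C3 and C5. C5, whose cleavage releases a strong inflammatory peptide and seeds the membrane pore, passed in both populations. The Great Basin ratios were 0.87, 0.72, 0.84 and 0.69 on creosote and -0.08, 0.12, -0.30 and -0.14 on juniper. Those of Mojave were 0.65, 0.69, 0.49 and 0.89 on creosote and -0.47, -0.29, 0.43 and -0.09 on juniper. All creosote animals lay above all juniper animals in both populations. The difference was 0.88 ± 0.13 in Great Basin (1.84-fold, adjusted p = 0.00121) and 0.91 ± 0.14 in Mojave (1.88-fold, adjusted p = 0.00119). The slides gave 0.61 to 1.17 in Great Basin and 0.063 to 1.12 in Mojave, all above 0. With median centring the Mojave difference was 0.50 (adjusted p = 0.0773).

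C5 had 2 further probes, which gave smaller differences. One gave 0.47 ± 0.10 in Great Basin (adjusted p = 0.0167 over probes) and 0.29 ± 0.11 in Mojave (adjusted p = 0.122). The other gave 0.57 ± 0.15 (adjusted p = 0.0471) and 0.16 ± 0.16 (adjusted p = 0.643). Both passed averaged over populations (0.38 ± 0.07 and 0.37 ± 0.11, adjusted p = 0.00345 and 0.0428). All 3 probes of C5 gave values above 0, and the size of 1.84-fold and 1.88-fold belongs to the brightest.

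C3, the most abundant complement protein of plasma and the substrate of every convertase, gave 0.38 ± 0.17 in Great Basin and 0.32 ± 0.18 in Mojave. Its average of 0.35 ± 0.12 missed the threshold (adjusted p = 0.0875). It passed without Great Basin creosote 3 (adjusted p = 0.0251), Great Basin juniper 2 (0.0348) or Mojave creosote 1 (0.0411). Cfb, the protease of the alternative pathway, gave 0.28 ± 0.21 and 0.52 ± 0.23. Its average was 0.40 ± 0.16 (adjusted p = 0.12), past the threshold without Great Basin creosote 3 (adjusted p = 0.0457) or Mojave creosote 1 (0.00874). Without Mojave creosote 1 the Mojave difference of Cfb passed as well (0.76, adjusted p = 0.0164).

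Cfi, complement factor I, cuts the active fragments of C3 and C4 and so restrains all of the routes. Its ratios in Mojave animals were 0.43, 0.22, 0.61 and 0.50 on creosote and -1.25, -1.36, -0.71 and -1.53 on juniper. Each Mojave creosote animal was far above each Mojave juniper animal. The difference was 1.78 ± 0.34 (3.43-fold, adjusted p = 0.00431), with 1.32 to 2.03 on the 4 slides, and it held in all 29 alternatives. The Great Basin animals had Cfi ratios of 0.91, 0.35, -0.29 and 1.16 on creosote and -0.59, 0.68, -0.73 and -0.74 on juniper. Here creosote animal 3 and juniper animal 2 crossed, and the difference of 0.88 ± 0.32 did not pass (adjusted p = 0.15). It passed without creosote animal 3 (1.24, adjusted p = 0.0181) or without juniper animal 2 (1.21, adjusted p = 0.0295). In males alone it passed too (1.37, adjusted p = 0.0171). The test of the difference between populations gave 0.90 ± 0.46 (adjusted p = 0.43), which did not pass.

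C4bpb, the beta chain of the C4b-binding protein, another inhibitor, gave 0.23 ± 0.12 and 0.07 ± 0.13. The terminal components C8a and C9, which build the membrane pore, gave 0.05 or less averaged over populations (-0.01 ± 0.07 for C8a and 0.05 ± 0.05 for C9). The C8a probe was well above background on 12 of the 16 arrays. A probe that the array design names C8b_mapped, outside the list, was well above background on all 16 arrays and gave -0.02 ± 0.07 in Great Basin and -0.08 ± 0.08 in Mojave.

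Of the 6 protease precursors of clotting, F2 passed, in the average over populations. F2 encodes prothrombin, the precursor of thrombin. Great Basin animals had 1.24, 0.50, -0.05 and 0.80 on creosote and -0.51, 0.36, 0.29 and -0.06 on juniper. Mojave animals had 0.50, 0.82, 0.90 and 0.97 on creosote and -0.06, 0.19, -0.25 and 0.16 on juniper. The Mojave diet groups stood apart and those of Great Basin overlapped, with creosote animal 3 among the juniper animals. The Mojave difference passed without the sex term (0.79, adjusted p = 0.0329) or without Great Basin creosote animal 3 (0.72, adjusted p = 0.0404). The average was 0.63 ± 0.16 (1.54-fold, adjusted p = 0.0194), and it was lost without Great Basin creosote 4, Great Basin juniper 4 or Mojave juniper 1 (adjusted p = 0.057, 0.058 and 0.0574), and also with median centring (0.46, adjusted p = 0.0696), in the red channel alone (0.36, adjusted p = 0.0532) and without the dimmest slide (0.57, adjusted p = 0.0779).

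The other 5 precursors did not pass at their brightest probe. F9, the factor missing in haemophilia B, gave 0.47 ± 0.20 averaged over populations, and F7, which starts clotting with tissue factor, gave 0.29 ± 0.16. F10 gave 0.11 ± 0.05, and it passed with median centring (0.24, adjusted p = 0.0226), and F11 gave -0.11 ± 0.07. F9 passed without Mojave creosote animal 2 (adjusted p = 0.0447) or Mojave juniper animal 1 (adjusted p = 0.0365).

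F12, the precursor that is activated on foreign surfaces, had probes that disagreed. The brightest gave 0.38 ± 0.24 in Great Basin and 0.28 ± 0.26 in Mojave, neither past the threshold. The second probe read 0.35, 0.63, 0.53 and 0.19 in Mojave animals on creosote and -0.77, -0.64, -0.93 and -1.01 on juniper. At that probe every Mojave creosote animal was above every Mojave juniper animal, with a difference of 1.24 ± 0.16 (adjusted p = 0.000351 over probes). In Great Basin it read 0.62, -0.15, 0.10 and 0.52 on creosote and -0.28, -0.08, -0.18 and -0.30 on juniper. Those groups overlapped through creosote animal 2, and the difference was 0.48 ± 0.15 (adjusted p = 0.0916). Averaged over populations the second probe gave 0.86 ± 0.11 (adjusted p = 0.000116 over probes). Its difference between populations was 0.76 ± 0.22 and did not pass (adjusted p = 0.146 over probes). With the mean of both probes F12 passed in Mojave animals (0.76, adjusted p = 0.0165) and on average (0.60, adjusted p = 0.00523).

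Fibrinogen is built of 3 chains, encoded by Fga, Fgb and Fgg, and forms the fibrin of a clot. Fgb read 1.56, 1.13, 0.58 and 2.20 on creosote and 0.87, 1.06, 0.27 and 0.63 on juniper in Great Basin animals. Among Mojave animals it read 1.52, 0.85, 1.495 and 1.42 on creosote and 0.39, 0.35, 0.89 and 0.31 on juniper. The groups overlapped in both populations, in Mojave only because creosote animal 2 lay just below juniper animal 3. The difference was 0.66 ± 0.27 in Great Basin (adjusted p = 0.207), 0.97 ± 0.29 in Mojave (1.95-fold, adjusted p = 0.047) and 0.81 ± 0.20 on average (1.76-fold, adjusted p = 0.0127). The Mojave call was lost on leaving out any 1 of 12 of the 16 animals (highest adjusted p = 0.122), and with median centring (0.49, adjusted p = 0.189), the deposited ratios (0.94, adjusted p = 0.11), the red channel alone (0.22, adjusted p = 0.223) or without the dimmest slide (0.97, adjusted p = 0.124), among other settings. The averaged call was lost in the red channel alone (0.16, adjusted p = 0.123) and without the dimmest slide (0.71, adjusted p = 0.0993). Without Great Basin creosote animal 3 the Great Basin difference became 1.01 and passed (adjusted p = 0.00945).

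The brightest Fgb probe was saturated on 13 of the 16 arrays and the brightest Fgg probe on 15, which limits what their ratios can show. Each has a probe that was saturated on no array. With these, Fgb gave 0.92 ± 0.36 in Great Basin (adjusted p = 0.199), 1.01 ± 0.42 in Mojave (adjusted p = 0.174) and 0.96 ± 0.28 on average (adjusted p = 0.0372). Fgg gave 0.64 ± 0.31, 0.88 ± 0.33 and 0.76 ± 0.23 (adjusted p = 0.312, 0.125 and 0.0412), against 0.34 ± 0.19 on average at its saturated probe (adjusted p = 0.295). So Fgg passed the averaged test only by the unsaturated probe or without Great Basin creosote animal 3 (0.53, adjusted p = 0.0426). A further, dimmer probe of Fgb gave 0.23 ± 0.11 in Great Basin and 0.50 ± 0.12 in Mojave (adjusted p = 0.292 and 0.0132 over probes). Fga, whose only probe was dim, gave 0.18 ± 0.06 on average (adjusted p = 0.0881), and it passed with the deposited ratios (0.60, adjusted p = 0.0232), with median centring (0.21, adjusted p = 0.0457) and without the dimmest slide (0.22, adjusted p = 0.0469). Without Mojave juniper animal 3 Fga passed too (0.21, adjusted p = 0.0145). F13b, the carrier chain of the enzyme that crosslinks fibrin, gave 0.37 ± 0.18 (adjusted p = 0.214), and Kng1, the kininogen of contact activation, 0.10 ± 0.09.

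Of the anticoagulants, Proc passed. It encodes protein C, which inactivates the cofactors of clotting. Its Mojave ratios were 0.47, 0.41, 0.27 and 0.33 on creosote and -0.30, -0.13, -0.22 and -0.36 on juniper. Its Great Basin ratios were 0.36, 0.09, 0.05 and 0.36 on creosote and -0.14, 0.15, -0.01 and 0.02 on juniper. The Mojave groups stood well apart and the Great Basin groups overlapped. The difference was 0.60 ± 0.10 in Mojave (1.52-fold, adjusted p = 0.00143), with 0.49 to 0.76 over the slides, and 0.21 ± 0.09 in Great Basin (adjusted p = 0.245). The difference between populations was 0.40 ± 0.13 and did not pass over all genes (adjusted p = 0.209). Its unadjusted p in limma (0.00866) was the lowest of the list for that test at the brightest probes. The second probe of F12 had 0.00358. Serpinc1, antithrombin, gave 0.43 ± 0.25 and 0.76 ± 0.29 on 15 arrays, and its average of 0.60 ± 0.19 missed the threshold (adjusted p = 0.0602). It passed without Great Basin creosote 3 (0.00476), Great Basin juniper 2 (0.0211) or Mojave creosote 2 (0.0498), and in males alone (0.75, adjusted p = 0.0378). Pros1, protein S, the cofactor of protein C, gave 0.09 ± 0.17 and 0.09 ± 0.18.

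Serpinf2 encodes alpha-2-antiplasmin, the main inhibitor of plasmin. Its ratios in Great Basin were 0.57, 0.26, 0.43 and 0.06 on creosote and -0.27, -0.22, -0.39 and -0.55 on juniper. Its ratios in Mojave were -0.33, -0.43, 0.35 and 0.08 on creosote and -0.55, -0.48, -0.39 and -0.57 on juniper. The Great Basin groups did not overlap, and the Mojave groups overlapped through creosote animal 2. The difference was 0.68 ± 0.15 in Great Basin (1.61-fold, adjusted p = 0.0182), 0.43 ± 0.16 in Mojave (adjusted p = 0.122) and 0.56 ± 0.11 on average (adjusted p = 0.00373). The Great Basin call was lost without creosote 1 (adjusted p = 0.0698), creosote 3 (0.0511), juniper 3 (0.0503) or juniper 4 (0.0688), in males alone (0.88, adjusted p = 0.149) and without the dimmest slide (0.59, adjusted p = 0.0774), and the Mojave difference passed without creosote 2 (0.55, adjusted p = 0.0495). A second probe gave 0.54 ± 0.15 and 0.50 ± 0.17, and passed on average (0.52 ± 0.11, adjusted p = 0.00666 over probes).

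Plg, plasminogen, the precursor that Serpinf2's product acts on once it is active, gave 0.37 ± 0.15 in Great Basin (adjusted p = 0.213) and 0.01 ± 0.16 in Mojave. Vtn encodes vitronectin, which blocks the membrane pore and stabilises an inhibitor of clot lysis. It gave 0.37 ± 0.23 and 0.71 ± 0.25, and its average of 0.54 ± 0.17 lay just outside the threshold (adjusted p = 0.0539). With slide as a block Vtn passed on average (0.57, adjusted p = 0.0467), as it did without the sex term (0.55, adjusted p = 0.0304), in the red channel alone (0.42, adjusted p = 0.0458) and among genes well above background on at least 12 arrays (0.0485). It also passed without Great Basin creosote 3 (adjusted p = 0.0105), Great Basin juniper 2 (0.0287) or Mojave creosote 1 (0.00812). Its Mojave difference passed without the sex term (adjusted p = 0.0442), Great Basin creosote 3 (0.0331) or Mojave creosote 1 (0.0165).

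**Figure D2:**
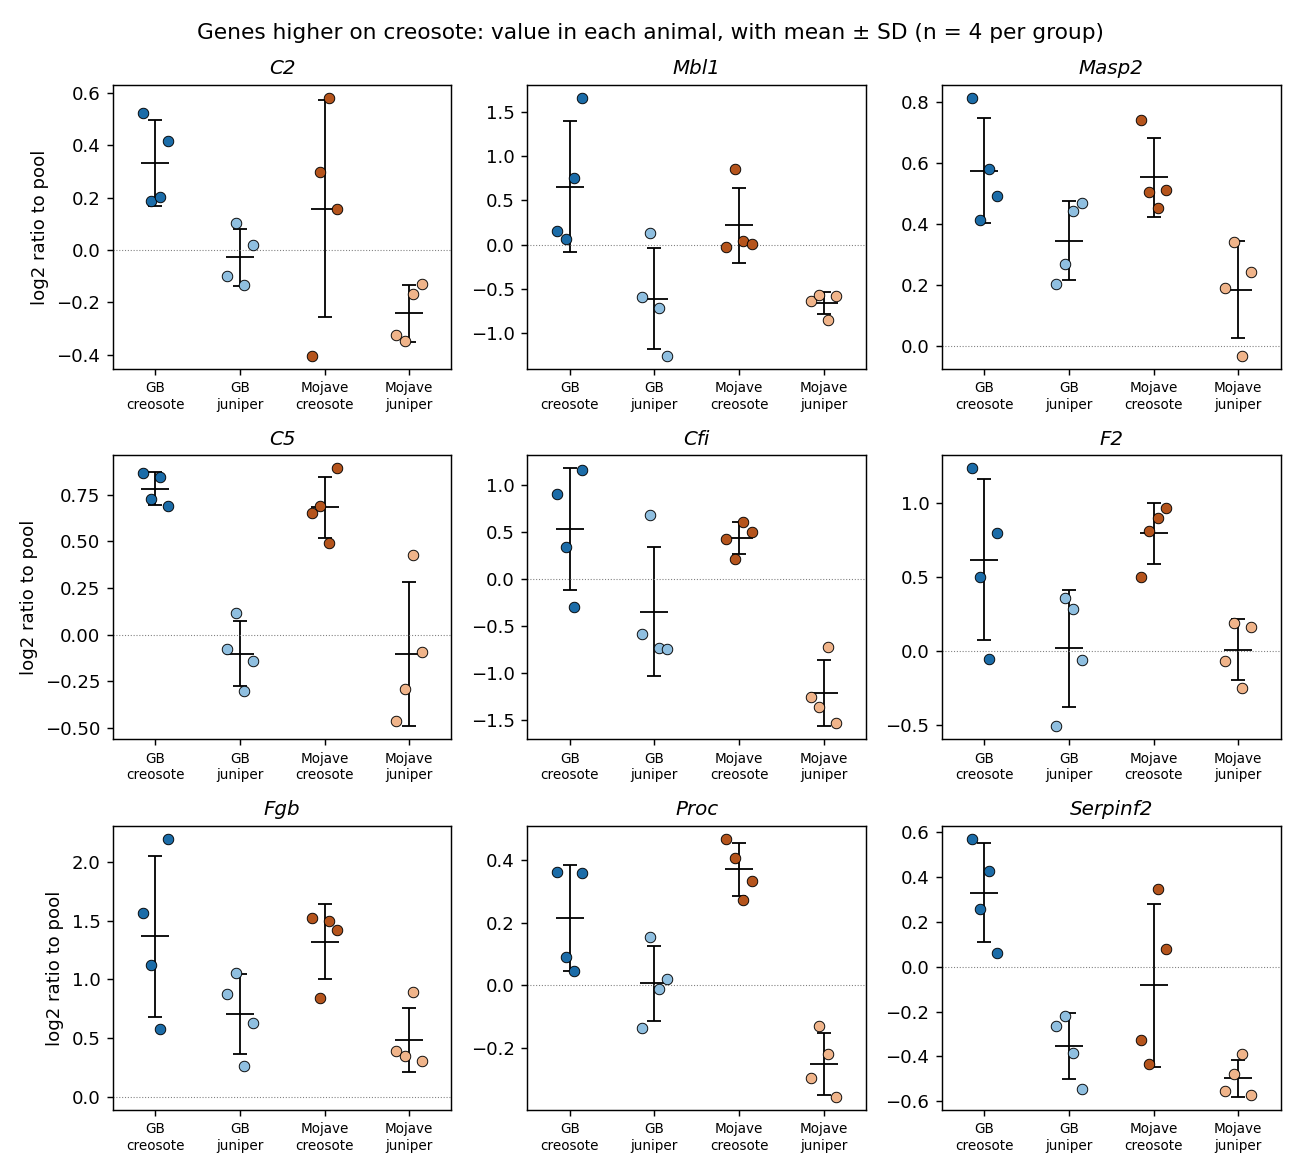
Log2 ratio to the pool (y axis) in each animal of the 4 groups (x axis, GB for Great Basin) for the 9 genes higher on creosote in the average over populations, with group mean ± SD (n = 4). All C5 values on creosote lie above all values on juniper within each population, and Cfi shows the widest gap, between the Mojave groups.

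Groups that do not overlap were counted over the list as well. The creosote and juniper animals did not overlap for 7 of 32 genes in Great Basin, where 10.6% of all genes had no overlap, and for 9 of 32 in Mojave, where 16.8% had none. In Great Basin these were C1s, C2, C5, F10, Fga, Plg and Serpinf2. In Mojave they were C1s, Mbl1, Masp2, C5, Cfi, C9, F2, Proc and Serpinc1. C1s rests on few animals in both counts, with 2 values in each Great Basin group and 1 in Mojave juniper.

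The animals differed among themselves in how far the list as a whole was shifted. The mean over the measured genes was 0.491, 0.256, 0.0695 and 0.463 in the Great Basin creosote animals and -0.0935, 0.201, -0.103 and -0.176 in the Great Basin juniper animals. In the Mojave creosote animals it was 0.0832, 0.0778, 0.26 and 0.275, and in the Mojave juniper animals -0.182, -0.191, -0.143 and -0.206. The Mojave groups stood apart, and the Mojave juniper animals were close to each other. In Great Basin, juniper animal 2 had a higher mean than creosote animal 3. The same 2 animals crossed at Cfi. Both were female, and the sex term passed for none of the 32 genes in limma (3 at an unadjusted p below 0.05, beside 4.38% of all genes) and for 1 of all genes. The median difference between diets also varied by slide, from 0.549 on the dimmest slide to 0.295, 0.259 and 0.122 on the others, and the part of brightness in this was not tested.

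Subunits of 1 protein were compared across animals after removing each group's mean, which leaves the spread among animals of the same group. The permutation shuffled these values across all groups. Values less their group mean are not independent. Their spread also differed between groups: the SD of C1qb was 0.94 in Mojave creosote and 0.22 in Mojave juniper. The permutation p-values can therefore be too small. Fgb and Fgg moved together, with Pearson's r = 0.915 over 16 animals (permutation p = 2e-05, 8e-05 adjusted over the 4 pairs tested) and Spearman's rho = 0.868 (p = 6e-05). Without the 2 animals farthest from the median of Fgb, r was 0.871. With the unsaturated probes r was 0.905 over 15 animals (permutation p = 4e-05). C1qa and C1qb gave r = 0.701 (permutation p = 0.00246, adjusted 0.00492) and rho = 0.882 (p = 2e-05), and r = 0.666 without 2 animals. The dim Fga gave r = 0.297 to Fgb (permutation p = 0.261) and r = 0.00654 to Fgg (p = 0.974). The pair C4bpa with C4bpb could not be run, since C4bpa was not measured, and C8a with C8b was not run, since the C8b_mapped probe was not taken for C8b. Arrays share slides, and the part of slide and of array quality in these relations was not tested. Single animals also differed in the mean over the whole list. Pairs of genes from different proteins were not run, so whether such relations are particular to subunits was not tested.

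**Figure D3:**
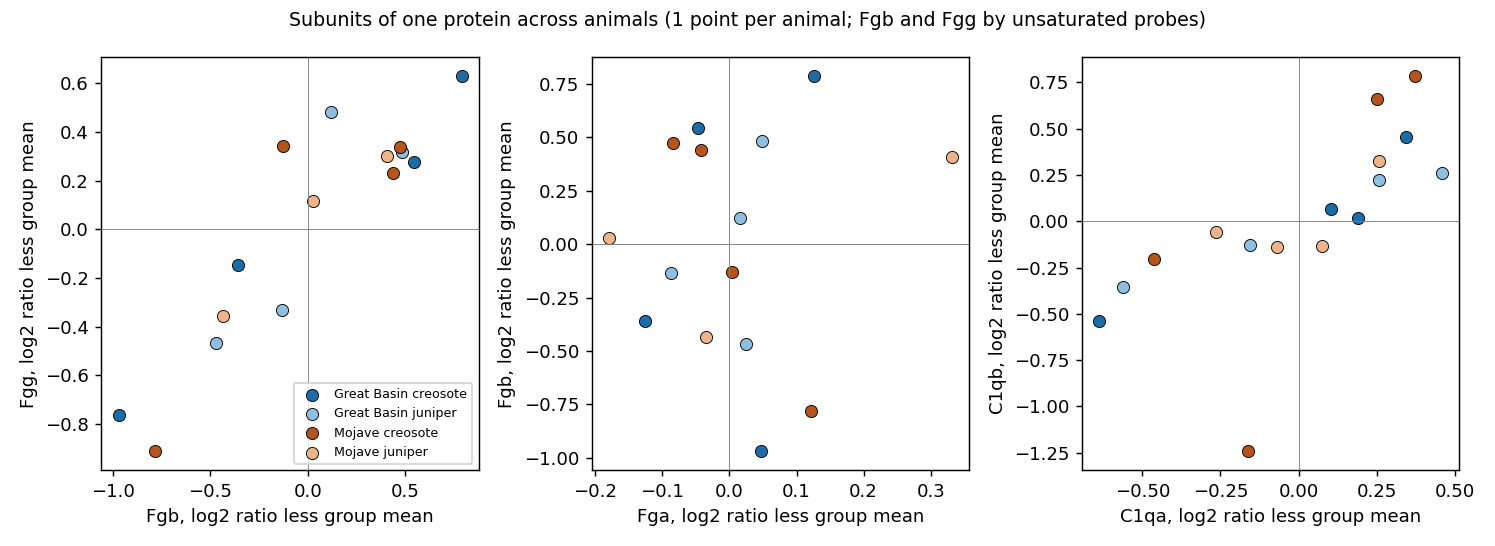
Log2 ratio less the group mean of one subunit against another, 1 point per animal, colours for the 4 groups, with Fgb and Fgg by their unsaturated probes. Fgb and Fgg lie along a line (r = 0.905, 15 animals), Fga and Fgb do not (r = 0.101), and C1qa and C1qb do apart from 1 Mojave creosote animal with a low C1qb.

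Between the populations no gene of the list passed limma's test with loess. On creosote, Mojave minus Great Basin, 0.0717% of all genes passed, on juniper 0.0113%, and averaged over diets 0.0339%. Unadjusted p fell below 0.05 for 5, 3 and 6 of the 32 genes in turn, beside 14.1%, 8.03% and 9.31% of all genes. The estimate lay above 0 for 10 of 32 genes on creosote, 6 on juniper and 6 averaged, beside 49.2%, 48% and 48.1% of all genes, with list medians of -0.11, -0.11 and -0.13. With median centring 6 of the 32 were lower in Mojave on creosote, where 11.1% of all genes were lower and 0.702% higher: Masp1, Masp2, C3, C4bpb, Plg and Serpinf2, from -0.52 for Masp2 to -0.86 for Plg. Groups did not overlap for 2 genes on creosote (6.04% of all genes) and for 5 on juniper (6.95%). The genes with the lowest unadjusted p were Plg on creosote (-0.47 ± 0.16, adjusted p = 0.212), Proc on juniper (-0.26 ± 0.09, adjusted p = 0.436) and F11 averaged over diets (-0.24 ± 0.07, adjusted p = 0.29). Plg passed on creosote without Mojave creosote animal 3 (-0.64, adjusted p = 0.0424).

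Whether the diet difference itself depended on the population was tested as an interaction. No gene of the list and 0% of all genes passed in limma with loess, while 3446 genes (13%) and 1 gene of the list, Proc, had an unadjusted p below 0.05. The median interaction was -0.0024 over the list, with 15 of 32 above 0 (50.1% of all genes) and a median SE of 0.25. With median centring the median was -0.50, and Masp1 passed (-0.77, adjusted p = 0.0479).

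Other genes of the same systems, outside the list, had medians near 0. Of 19 other complement genes measured, none passed as higher in either population. An unadjusted p below 0.05 in limma was reached by 3 in Great Basin and 4 in Mojave, near the 17% and 22.1% of all genes. C1qbp, a mitochondrial protein that binds C1q, was lower in Great Basin animals (-0.40 ± 0.08, adjusted p = 0.0112). Their median difference averaged over populations was 0.037 (-0.027 with the deposited ratios), and C8g, the remaining chain of C8, was higher (0.24 ± 0.07, adjusted p = 0.0316). C1r, the partner protease of C1s, gave 0.49 ± 0.26 (adjusted p = 0.267), and Serping1, the C1 inhibitor, gave 0.43 ± 0.20.

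Of 25 other clotting genes, none passed in Great Basin animals, where 8 had an unadjusted p below 0.05 in limma (17% of all genes). In Mojave animals 2 were higher and 3 lower, where 9.53% of all genes passed in either direction. Higher were Cpb2, which protects clots from plasmin (0.88 ± 0.25, adjusted p = 0.0373), and Proz, protein Z, a cofactor in the inhibition of factor X (0.73 ± 0.20, adjusted p = 0.0301). Lower were Vkorc1l1, a vitamin K reductase (-0.52 ± 0.09, adjusted p = 0.00272), Lman1, a receptor that carries clotting factors out of the endoplasmic reticulum (-0.60 ± 0.12, adjusted p = 0.00642), and Nqo1, a quinone reductase (-0.76 ± 0.22, adjusted p = 0.0403). Averaged over populations 3 were higher and 5 lower, where 12.1% of all genes passed, with a median of 0.0047 (-0.019 with median centring). Hrg, a plasma protein that binds plasminogen, was among the higher (0.50 ± 0.15, adjusted p = 0.0456) and Ggcx, the vitamin K-dependent carboxylase of clotting factors, among the lower (-0.33 ± 0.10, adjusted p = 0.0431).

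Acute phase genes, which the liver regulates in inflammation, moved in part. Of 18 measured, 4 were higher and 1 lower on creosote averaged over populations, with a median of 0.10. Of all genes, 12.1% passed in this average and 5.7% were higher. Itih3, a plasma proteinase inhibitor chain, was higher in both populations (1.32 ± 0.26 and 1.45 ± 0.30, adjusted p = 0.00991 and 0.00774). The others that passed on average were Cp, ceruloplasmin (0.60 ± 0.18, adjusted p = 0.0406), Il1rap, a chain of the interleukin-1 receptor (0.56 ± 0.12, adjusted p = 0.00608), and Orm1, orosomucoid (0.29 ± 0.06, adjusted p = 0.00295), all higher, and A2m, alpha-2-macroglobulin, lower (-0.18 ± 0.06, adjusted p = 0.0461). Crp, Hp, Lbp, Serpina3n and Saa4 did not pass, at 0.04 ± 0.06, 0.09 ± 0.20, -0.06 ± 0.06, 0.49 ± 0.19 and 0.65 ± 0.51. Of 19 liver transcription factors 1 passed, beside 12.1% of all genes on average. It was Nr1i3, the xenobiotic receptor CAR, higher in both populations (0.67 ± 0.11 and 0.82 ± 0.11, adjusted p = 0.00188 and 0.000654). Hnf4a and Cebpa, which drive many genes of plasma proteins, gave -0.16 ± 0.11 and -0.32 ± 0.28 on average.

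Hepatocyte markers were higher on creosote too. Of 15 measured, 8 were higher and 1 (Fabp1, a fatty acid carrier) was lower averaged over populations, with a median of 0.61 (0.43 with median centring, where 9 were higher and 1 lower). With loess, 12.1% of all genes passed in this average and 5.7% were higher. Albumin (Alb) was higher by 1.31 ± 0.21 (adjusted p = 0.000749), transthyretin (Ttr) by 0.91 ± 0.17, tyrosine aminotransferase (Tat) by 1.19 ± 0.14 and Cps1 of the urea cycle by 0.71 ± 0.09, while Apob (-0.13 ± 0.17), Rbp4 (0.00 ± 0.13) and Hgd (0.05 ± 0.06) did not pass. The mean over the marker list ran from 0.377 to 0.580 in Great Basin creosote animals, -0.0757 to 0.0773 in Great Basin juniper, 0.404 to 0.554 in Mojave creosote and -0.0764 to 0.0148 in Mojave juniper, with no overlap between diets. Great Basin creosote animal 3, which had the lowest mean of its group over the complement and clotting genes, had a marker mean of 0.512. Of the marker genes none is on the complement and clotting list. The part of the hepatocyte markers' shift in the diet differences was not tested.

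Markers of other liver and blood cells were counted the same way, beside 12.1% of all genes past the threshold. Averaged over populations, 1 of 9 endothelial markers was higher (Xlkd1), 2 of 11 stellate cell and fibroblast markers were higher, 1 of 8 neutrophil markers was higher (Csf3r), 1 of 12 Kupffer cell markers was lower (Cd14) and 1 of 3 erythroid and platelet markers was higher (Gp9). None of 5 lymphocyte, 4 cholangiocyte and 7 adipocyte and mesothelium markers passed in limma, with 0, 0 and 1 at an unadjusted p below 0.05. Of 14 pancreas and intestine markers 1 was higher and 1 lower. The list medians lay between -0.036 and 0.083, and of these lists the endothelial markers alone kept the sign of their median under every scaling tried. The part of these cells in the results was not tested.

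**Figure D4:**
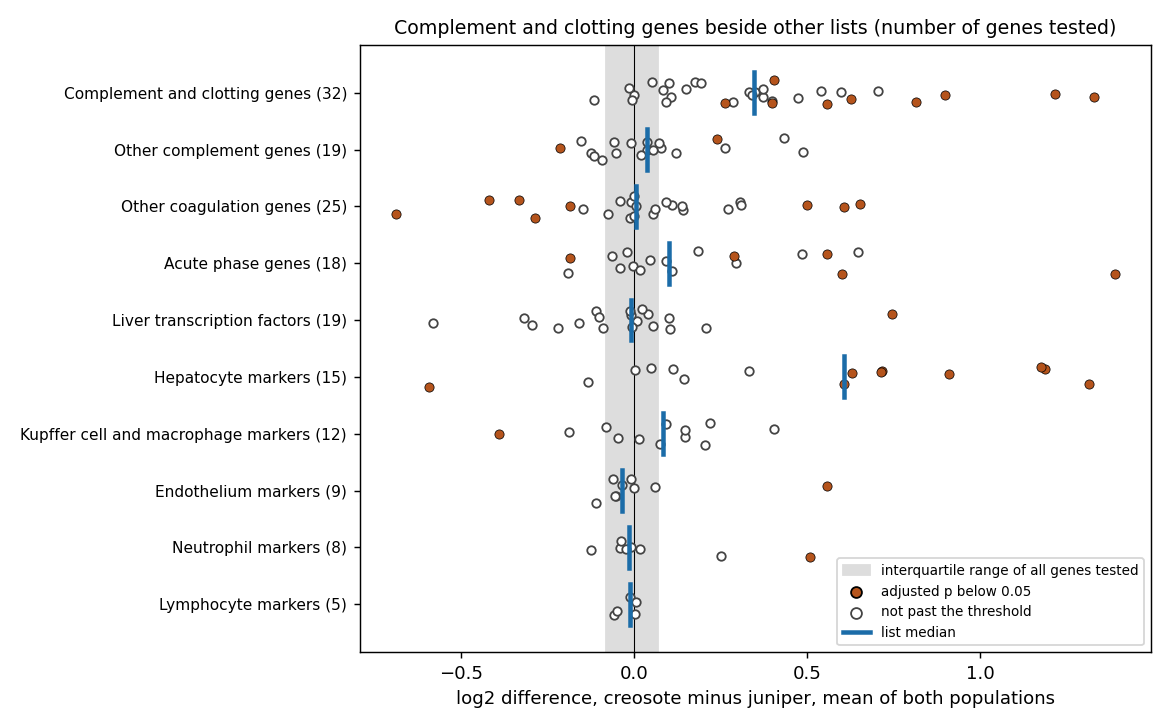
Diet difference averaged over populations (x axis, log2) of every measured gene of 10 gene lists (y axis, with the number of genes), filled where the adjusted p was below 0.05, with a blue bar at the list median and a grey band over the interquartile range of all genes. The complement and clotting genes (median 0.34) and the hepatocyte markers (0.61) lie to the right of the band, and the other lists have medians within or just beside it.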

How the data were processed

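Liver RNA of 16 animals was hybridised to 16 two-colour arrays, with 500 ng of RNA labelled per channel per the labels. The deposited scanner files hold the mean and background intensity of each spot in both dyes, from Agilent Feature Extraction 9.1.3.1 per the submitters' processing notes. The deposited series matrix gives the log2 of red over green processed signal, uncentred: its values differ from that ratio by at most 5e-10. No dyes were exchanged, so a dye effect alike on all arrays drops out of group differences. The lowest correlation between 2 arrays was -0.19.

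Analysis was done in R 4.3.3 (limma 3.58.1). Background correction was normexp, offset 50, which draws ratios of dim genes towards 0. Arrays were normalised by loess, with control and outlier spots at weight 0 and outlier spots left out. Replicated spots were averaged. A probe was used when well above background in the animal channel on at least 4 arrays, and the brightest such probe stood for its gene. Of 56 probes of the listed genes 47 were used. One limma model with 4 group means and sex was fitted to all arrays (11 residual degrees of freedom), tested two-sided. Tests of single probes were adjusted over 30151 probes.

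Every listed gene is accounted for, those past the threshold in any comparison with each animal's value. Probes other than the brightest were followed up after their values were seen. The list of genes, the other gene lists and the tests were chosen with earlier results of these data known. The labels do not say that animals were independent litters or catches, so p-values measure the spread between these animals. The number of arrays limits the precision. Probes are of rat and were not matched to woodrat sequence, gene names come from the array design, and genome positions were not used. The alternatives are named in the closing section, and the code was tested on simulated data.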

Additional observations from a re-analysis of the deposited data

Results flagged for a closer look

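Animals that stood apart within their group of 4 were looked for over 124 groups of 4 values (1 gene in 1 group of animals each), by the gap to the nearest other animal relative to the group's range. Chance alone gives about 1 in 20, and 12 (9.68%) were found, 9 high and 3 low. All values are log2 ratios to the pool. Mbl1 was high in Mojave creosote animal 2 (0.85, the others -0.029 to 0.040). Cfi was high in Great Basin juniper animal 2 (0.68, the others -0.74 to -0.59), and Vtn was high in the same animal (0.82). Vtn was low in Great Basin creosote animal 3 (0.13, the others 0.90 to 1.01). Fgb was low in Mojave creosote animal 2 (0.85, the others 1.42 to 1.52) and high in Mojave juniper animal 3 (0.89), where Fgg was high too (0.74). C8a was high in Great Basin creosote animal 4 (0.31) and Mojave creosote animal 3 (0.28), F10 in Great Basin juniper animal 1 (-0.021) and F11 in Great Basin creosote animal 1 (0.29). F13b was low in Mojave juniper animal 2 (-0.67). The outlying animals of Mbl1, Cfi and Vtn are among those whose removal ended or added a call for these genes.

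Masp1 was higher on creosote on all 4 slides in Great Basin animals and lower on all 4 slides in Mojave animals. The difference between the populations was -0.33 ± 0.16 and did not pass (limma, adjusted p = 0.40). Its other measured probes did not show it, with interactions of -0.07, 0.05 and 0.04.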

How the results depend on the processing

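Each count and call was recomputed under 29 alternatives, 1 of them (the brightest probe saturated on no array) chosen after seeing the data. Besides those named below, they were no sex term, a background offset of 10, the deposited ratios and the mean of the used probes. The filter on dim probes was also set to at least 12 arrays or left out. Over the 17 calls, 67 of 493 recomputed values lost the call and 0 reversed. The averaged calls of Mbl1, C5, Cfi, Proc and Serpinf2, the C5 call in Great Basin and the Cfi and Proc calls in Mojave held throughout. C2 lost its averaged call in 13 alternatives, Masp2 in 8, F2 in 6 and Fgb in 2. Median centring in place of loess left 3 calls in Mojave (2 higher, Masp1 lower), 6 between populations on creosote, all lower in Mojave (Masp1, Masp2, C3, C4bpb, Plg and Serpinf2), and 1 interaction (Masp1). It moved the median of the list from 0.30 to -0.013 in Mojave animals and from -0.11 to -0.52 between populations on creosote. The red channel alone left 3 calls in Mojave. Without the dimmest slide 1 call was left in Great Basin and 3 in Mojave. The cause of these changes was not tested, and the last setting also held fewer animals. Leaving out 1 animal at a time gave 1 to 4 calls in Great Basin (1 without Great Basin juniper animal 4), 4 to 8 in Mojave (8 without Great Basin creosote animal 3), 7 to 13 on average, 0 to 1 between populations on creosote, 0 to 0 in the other comparisons, and a median of 0.30 to 0.41. Over the other alternatives the median ran from 0.21 (median centring) to 0.40 (males alone). With slide as a block the calls were 3, 5 and 10 in Great Basin, Mojave and on average, and in males alone 2, 4 and 8. The counts of this section stand without the share of all genes called under the same setting. They do not show whether the list changed more than the other genes did.

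Of 24 pairs of same-numbered animals from different groups, 3 correlated above 0.1 (-0.167 to 0.135). Animals of different numbers were not compared, so these values do not settle whether replicate numbers pair the animals. With the replicate block the calls were 3, 4 and 8, with 0 in the other comparisons and a median of 0.34. These counts too stand without the share of all genes called under the same setting.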
